A study of Oreochromis niloticus with 6 samples.

Results

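Lipid droplet coat and lipolysis genes were followed in the livers of Nile tilapia, Oreochromis niloticus. The fish were male wild-type juveniles of GIFT, a farmed line bred for growth. The genes were chosen by name, as perilipins (plin1 to plin6), CIDE proteins, FIT proteins, seipin (bscl2), the lipases pnpla2, pnpla3, lipe and mgll, and the lipase regulators abhd5, g0s2 and hilpda. In all, 14 of 26490 gene IDs of the mRNA table carried 13 of the 19 names. No row was found under plin1, plin3, plin4, plin5, g0s2 or hilpda, which are not analysed here, although a RefSeq gene table of the assembly O_niloticus_UMD_NMBU names plin3 and g0s2 in this species. The same table names abhd5a and abhd5b where the mRNA table has 1 row, ABHD5.

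The 6 libraries fall into groups of 3 by diet. Fish of the high-fat diet group (HFD) ate 18.5% lipid and fish of the normal-fat diet group (NFD) ate 8% lipid, both for 56 days in tanks. The protocols state that RNA of 3 samples per group was mixed and do not say whether each library is a mixture of its own, so the spread between libraries may be technical. Levels are FPKM, fragments per kilobase of transcript scaled to the sequenced fragments of the library, so they can be compared between genes. The number of reads behind a value is unknown, and an exact 0 is given as listed at 0, which can also be a failed estimate.

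Neutral fat is stored in droplets that bud from the endoplasmic reticulum and are wrapped in coat proteins. Lipases strip the fatty acids off the stored triglyceride in turn: PNPLA2 (adipose triglyceride lipase) takes the first, hormone-sensitive lipase (the lipe genes) the next and monoglyceride lipase (mgll) the last. In the liver this store takes up surplus dietary fat and feeds both oxidation and lipoprotein secretion. These roles were worked out mostly in mammals.

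Of the 14 genes, 5 reached 0.5 FPKM in at least 3 of the 6 libraries and were tested, 7 were below this filter and 2 were listed at 0 in every library. With limma on log2(FPKM + 0.5), adjusted over all 9204 tested genes, 0 of the 5 passed an adjusted p of 0.05, and 0% of all genes did. At an unadjusted p under 0.05 there were 2 of the 5, pnpla2 on the higher side and fitm2 on the lower side in HFD, against 554 of all tested genes, or 6.02% (2.67% higher and 3.35% lower in HFD). The same 2 genes had no overlap between the diets, against 11.6% of all tested genes (5.48% higher and 6.15% lower in HFD). The 5 genes had a median log2 fold change of 0.07, with 3 above 0 and 2 below, and the median of all tested genes was 0.0031. Both genes were known from earlier results to differ between the diets, so these counts are a description.

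**Figure D1:**
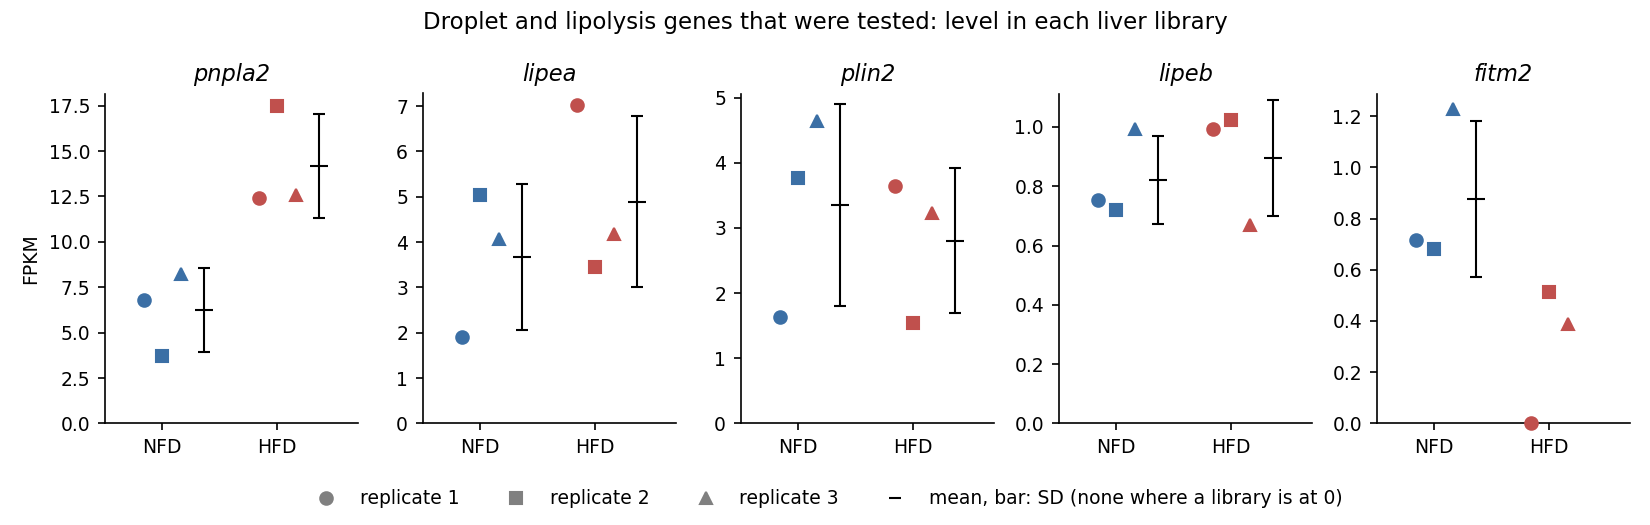
FPKM of the 5 tested genes (vertical axes, linear, each gene with its own scale) in the NFD libraries (blue) and HFD libraries (red), one symbol per replicate, with mean and SD in black except where a library is listed at 0. The HFD points of pnpla2 all lie above the NFD points, those of fitm2 all below, and the diets overlap for lipea, plin2 and lipeb.

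Triglyceride lipase pnpla2 (MSTRG.4355), had the highest level of all these genes. It was at 12.4, 17.5 and 12.6 FPKM in HFD replicates 1, 2 and 3 and at 6.78, 3.69 and 8.21 FPKM in NFD replicates 1, 2 and 3. Every HFD library was above every NFD library, with HFD replicate 2 highest and NFD replicate 2 lowest. The means were 14.2 ± 2.87 and 6.23 ± 2.31 FPKM (SD, n = 3 each), a ratio of 2.28. The log2 fold change was 1.17 ± 0.32 SE, with a 95% interval from 0.39 to 1.96, and the adjusted p in limma was 0.708, so the difference did not pass over all genes. Without NFD replicate 2 the log2 fold change was 0.86 and without NFD replicate 3 it was 1.39. In these bulk samples, a change in the number of cells of a type and a change in RNA per cell cannot be told apart.

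Hormone-sensitive lipase, which takes the next fatty acid, has a pair of fish genes. The level of lipea (MSTRG.13447) was 7.02, 3.46 and 4.19 FPKM in HFD replicates 1 to 3 and 1.90, 5.05 and 4.06 FPKM in NFD replicates 1 to 3. The highest library was an HFD one and the lowest an NFD one, and the other 4 lay between 3.46 and 5.05 FPKM with the diets mixed. Its log2 fold change was 0.40 ± 0.40 SE with an interval from -0.56 to 1.36 (limma, adjusted p = 0.921). Without NFD replicate 1 the log2 fold change of lipea was 0.04, and without HFD replicate 1 it was 0.13.

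The second copy, lipeb (MSTRG.34604), was at 0.992, 1.02 and 0.669 FPKM in HFD and at 0.755, 0.719 and 0.992 FPKM in NFD. It had the smallest spread of the 9 genes with a value in every library, with 1.53 times between its highest and lowest library, and the diets overlapped. Its log2 fold change was 0.07 ± 0.19 SE, with an interval from -0.39 to 0.54 (limma, adjusted p = 0.982). That interval lies below the pnpla2 estimate of 1.17 but overlaps the pnpla2 interval, which starts at 0.39. On this scale the changes of low genes are also understated. The level of lipea was between 2.52 and 7.07 times that of lipeb across the libraries. How reads shared by the copies were split is not stated in these sources.

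The remaining lipases were low. The patatin-like lipase pnpla3 (MSTRG.17279), a droplet protein known in humans for a variant linked to fatty liver, was at 0.479, 0.376 and 0.354 FPKM in HFD and at 0.403, 0.671 and 0.501 FPKM in NFD. Monoglyceride lipase, mgll (MSTRG.9836), was at 0.223, 0.211 and 0.3004 FPKM in HFD and at 0.266, 0.329 and 0.224 FPKM in NFD. Both genes were below the filter and overlapped between the diets.

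Added over the 5 lipase genes, the level was 21.2, 22.6 and 18.1 FPKM in HFD and 10.1, 10.5 and 13.99 FPKM in NFD, without overlap. The other 4 lipases without pnpla2 summed to between 5.07 and 8.72 FPKM in HFD and between 3.32 and 6.77 FPKM in NFD, with overlap. Pnpla2 made up between 58.8% and 77.5% of the sum in HFD and between 35.3% and 67.1% in NFD. The ratio of pnpla2 to lipea was 1.77, 5.06 and 3.01 in HFD and 3.57, 0.731 and 2.02 in NFD, so NFD replicate 2 was the library in which lipea stood above pnpla2.

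**Figure D2:**
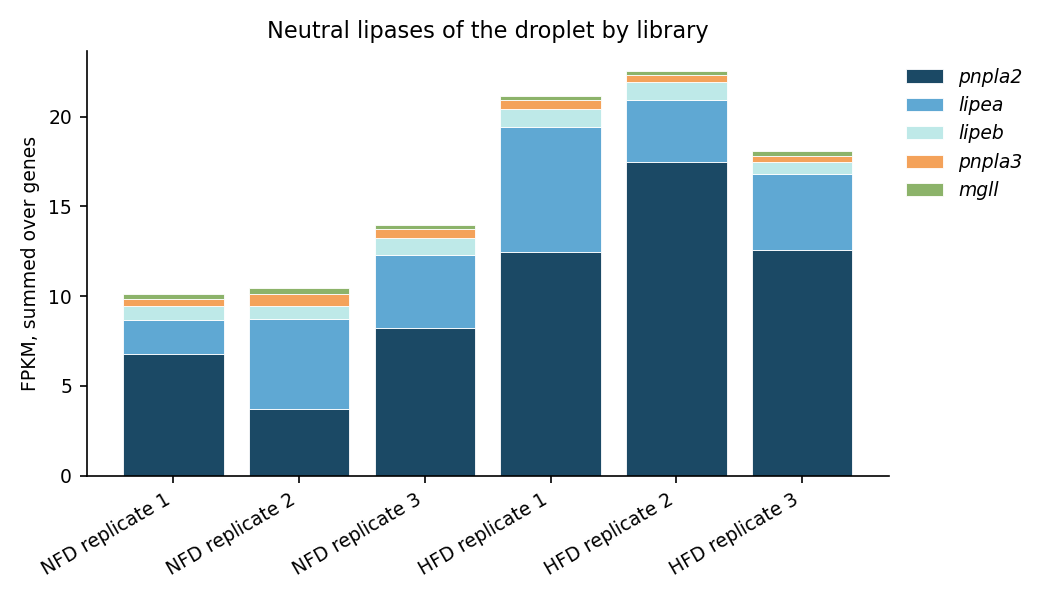
Stacked FPKM of the 5 lipase genes (vertical axis, from 0) in each of the 6 libraries. The HFD bars reach between 18.1 and 22.6 FPKM and the NFD bars between 10.1 and 13.99, and the dark part, pnpla2, is the largest in every library but NFD replicate 2.

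The activator of PNPLA2 that the table names is ABHD5 (MSTRG.34656), a protein that binds the lipase at the droplet surface and raises its activity. Its level was 0.142, 0.134 and 0.179 FPKM in HFD and 0.721, 0.513 and 0.0168 FPKM in NFD. NFD replicates 1 and 2 were above all HFD libraries and NFD replicate 3 was below them all, a range of 43.1 times within NFD. With 2 libraries at 0.5 FPKM or more it was just outside the filter and was not tested. Pnpla2 was at least 7.19 times as abundant as ABHD5 in every library. The inhibitors of PNPLA2, g0s2 and hilpda, are among the names without a row.

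Of the coat and droplet growth genes, perilipin 2, the main coat protein of liver droplets in mammals, was tested. The level of plin2 (MSTRG.35631) was 3.64, 1.55 and 3.23 FPKM in HFD and 1.63, 3.76 and 4.65 FPKM in NFD. Each diet held 1 low and 2 higher libraries, and the diets overlapped over almost the whole range. The means were 2.81 ± 1.11 and 3.35 ± 1.55 FPKM (SD, n = 3 each), and the log2 fold change was -0.19 ± 0.43 SE with an interval from -1.22 to 0.84 (limma, adjusted p = 0.98). The direction rests on single libraries, as the log2 fold change was 0.13 without HFD replicate 2 and 0.07 without NFD replicate 3. A second plin2 transcript was listed at 0 in every library. HFD replicate 2, with the lowest plin2, had the highest pnpla2, and the ratio of pnpla2 to plin2 there was 11.3, against a range from 0.981 to 4.16 in the other 5 libraries.

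The CIDE proteins, which pass fat between droplets so that they grow, were all low. Cideb (MSTRG.36186), the family member of mammalian hepatocytes, where it also loads lipoproteins with fat, was at 0.422, 0.472 and 0.350 FPKM in HFD and at 0.532, 0.404 and 0.678 FPKM in NFD. Cidea (MSTRG.21007), a gene of brown fat in mice, was at 0.0796, 0.516 and 0.284 FPKM in HFD and at 0.366, 0.1 and 0.451 FPKM in NFD, a range of 6.48 times within HFD. Cidec (MSTRG.7014), a gene of white fat, stayed at or below 0.123 FPKM and was listed at 0 in NFD replicate 2. None of the CIDE genes passed the filter, and the diets overlapped for each. Plin6 (MSTRG.19444), a perilipin of pigment cells in zebrafish, was listed at 0 in all 6 libraries.

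Droplet formation was represented by fitm2, fitm1 and bscl2. FIT proteins sit in the endoplasmic reticulum and are needed for droplets to bud. The level of fitm2 (MSTRG.30121) was listed at 0 in HFD replicate 1 and was 0.515 and 0.390 FPKM in HFD replicates 2 and 3. In NFD it was 0.718, 0.682 and 1.23 FPKM, so every HFD library was below every NFD library. The log2 fold change was -0.82 ± 0.33 SE with an interval from -1.61 to -0.03 (limma, adjusted p = 0.826), and did not pass over all genes. Its size depends on how the library at 0 is handled, with a log2 fold change of -1.61 at a pseudocount of 0.1, -0.54 at a pseudocount of 1 and -0.51 without HFD replicate 1. Fitm2 reached 0.5 FPKM in 4 libraries, 3 of them NFD, so it entered the test mainly through the diet in which it was higher. Its unadjusted p stayed under 0.05 without HFD replicate 2 and was above 0.05 without any one of the other 5 libraries.

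The paralog fitm1 (ENSONIG00000016643), known from mammalian muscle, was at 0.0347, 0.0403 and 0.0472 FPKM in HFD and was listed at 0 in all 3 NFD libraries. These levels are under the filter, and no fold is given against libraries at 0. Seipin, bscl2 (MSTRG.13313), which marks the sites where droplets form, was listed at 0 in every library.

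**Figure D3:**
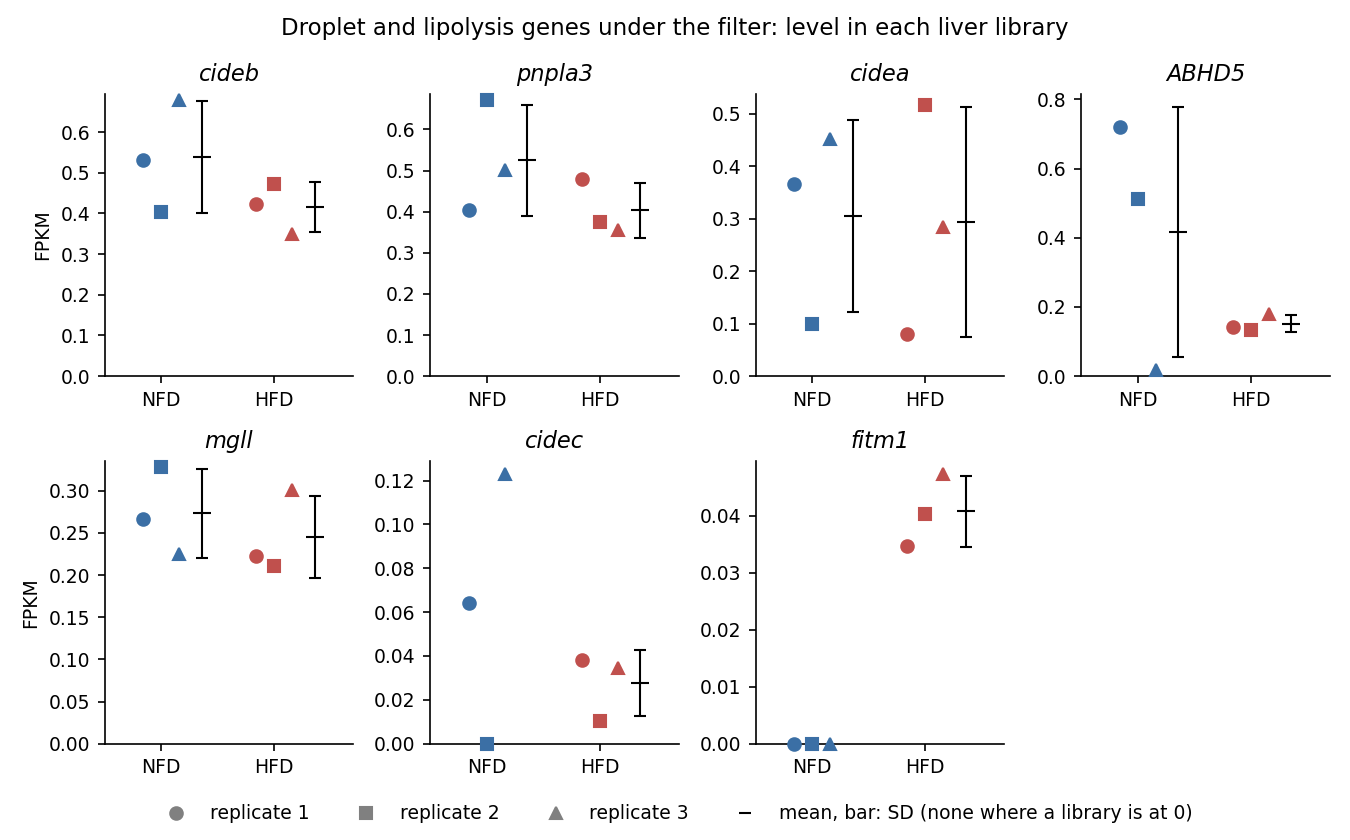
FPKM of the 7 genes below the filter that had a value in at least 1 library (vertical axes, linear, each gene with its own scale), NFD in blue and HFD in red, one symbol per replicate, with mean and SD in black except where a library is listed at 0. All points lie at or below 0.721 FPKM, ABHD5 spreads from 0.0168 to 0.721 FPKM within NFD, and fitm1 has values in HFD only.

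In order of level, HFD livers had pnpla2 above lipea without overlap, then lipea and plin2 with overlapping libraries, then lipeb, which stood apart from its neighbours on both sides. Below them cideb, pnpla3, fitm2, cidea and mgll followed, each overlapping the next, and ABHD5 came below mgll without overlap. In NFD livers pnpla2, lipea and plin2 overlapped in this order at means of 6.23, 3.67 and 3.35 FPKM. Fitm2, below pnpla3 in HFD, came between plin2 and lipeb in NFD, where its libraries overlapped those of lipeb and not those of plin2. By mean level over the 6 libraries pnpla2 ranked 879 of 26490 gene IDs, lipea 2028 and plin2 2780, while 9 of the 14 genes stayed below 1 FPKM in every library.

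**Figure D4:**
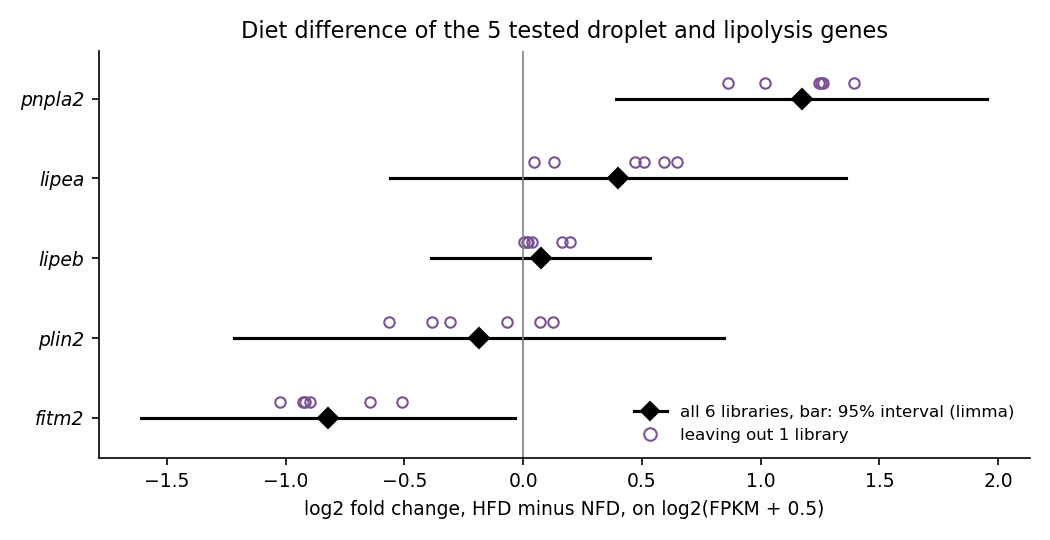
Log2 fold change of HFD against NFD on the log2(FPKM + 0.5) scale for the 5 tested genes (diamonds, with 95% intervals from limma) and the values after leaving out each library in turn (open circles). The pnpla2 circles run from 0.86 to 1.39 and the fitm2 circles from -1.02 to -0.51, while those of plin2 lie on both sides of 0.

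The genes whose pattern over the 6 libraries was most like that of pnpla2 were g6pca.1, sox8a and osbpl3a. The first of these, g6pca.1 (MSTRG.15583), codes for the phosphatase that sets glucose free, and was at 24.9, 28.6 and 21.1 FPKM in HFD and at 11.7, 7.25 and 13.4 FPKM in NFD. Like pnpla2 it was highest in HFD replicate 2 and lowest in NFD replicate 2. On the log2(FPKM + 0.5) scale the correlation with pnpla2 was 0.987 for g6pca.1, 0.983 for the transcription factor gene sox8a (MSTRG.1658) and 0.98 for the oxysterol-binding protein gene osbpl3a (MSTRG.15813), as a description over 6 libraries that includes the diet difference. The genes most like fitm2 were ndufa2 (MSTRG.29979), of respiratory complex I, at 0.991, the lysosomal enzyme gene idua (MSTRG.10929), at 0.99, and ENSONIG00000024967, at 0.987. Ndufa2 was at 15.4, 23.2 and 20.1 FPKM in HFD and at 23.6, 23.7 and 28.4 FPKM in NFD, lowest in HFD replicate 1 as fitm2 was.

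Other genes of droplets and triglyceride turnover were taken from 4 lists. In these lists, as over all genes, 0 passed an adjusted p of 0.05 in limma in either direction. Among 21 tested other droplet proteins the median log2 fold change was -0.0016, with 10 higher and 11 lower in HFD, and 2 had an unadjusted p under 0.05 against 6.02% of all genes. Caveolin, cav1 (MSTRG.16359), a membrane protein also found on droplets, was at 4.11, 3.95 and 4.14 FPKM in HFD and at 2.28, 2.88 and 3.01 FPKM in NFD. The sterol enzyme gene hsd17b7 (MSTRG.3439) was at 0.353, 0.483 and 0.279 FPKM in HFD and at 0.692, 0.593 and 1.16 FPKM in NFD. Neither gene overlapped between the diets, and these were 2 of the 21, against 11.6% of all tested genes. This hsd17b7 reached the filter of 0.5 FPKM in the NFD libraries alone, the diet in which it was higher. A second gene ID, HSD17B7 (MSTRG.22535), was at 0.878, 6.58 and 1.86 FPKM in HFD and at 1.14, 1.14 and 1.72 FPKM in NFD. Its diets overlapped, and its log2 fold change was 0.65.

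Among 13 tested lipases and hydrolases outside the droplet chain, 9 were higher and 4 lower in HFD, with a median of 0.45, where 50.4% of all tested genes were above 0. An unadjusted p under 0.05 was found for 3, against 6.02% of all tested genes, and 4 did not overlap between the diets, against 11.6%. Lipoprotein lipase lpl (MSTRG.3362), which frees fatty acids from lipoproteins, was at 19.1, 17.8 and 10.4 FPKM in HFD and at 6.75, 2.81 and 6.84 FPKM in NFD. Endothelial lipase lipg (MSTRG.18938), which acts mainly on lipoprotein phospholipid in mammals, was listed at 0 in HFD replicate 1, was at 0.168 and 0.418 FPKM in HFD replicates 2 and 3, and was at 1.71, 2.15 and 2.18 FPKM in NFD. The phospholipase gene ddhd2 (MSTRG.20036), which in mice also acts on triglyceride in the brain, was at 1.86, 2.40 and 1.96 FPKM in HFD and at 1.22, 1.47 and 1.46 FPKM in NFD. The diets did not overlap for these genes, and their adjusted p in limma was 0.708 for lpl, 0.235 for lipg and 0.826 for ddhd2. Lipg reached the filter in the NFD libraries alone, the diet in which it was higher. The remaining gene ID without overlap, pnpla7b/zgc:64051 (MSTRG.35305), was chosen after its values were seen, at 5.47, 4.83 and 4.37 FPKM in HFD and at 4.22, 1.24 and 4.11 FPKM in NFD.

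Genes listed under triglyceride synthesis lay on both sides of 0. Of 13 tested, 6 were higher and 7 lower in HFD, with a median of -0.06, 0 without overlap and 0 with an unadjusted p under 0.05, against 11.6% and 6.02% of all tested genes. The most abundant were the acyltransferase genes gpat3 (MSTRG.23138), at 7.996, 1.84 and 4.52 FPKM in HFD and at 3.49, 7.67 and 9.37 FPKM in NFD, and agpat5 (MSTRG.5048), at 7.59, 2.92 and 3.46 FPKM in HFD and at 3.09, 4.91 and 5.98 FPKM in NFD. Both were lowest in HFD replicate 2, as plin2 was. The lower genes of this list include soat1 (MSTRG.3275) and soat2 (MSTRG.20191), which esterify sterols, and the sterol enzyme gene acat2 (MSTRG.17466). These do not build triglyceride. Their log2 fold changes were -0.45, -0.31 and -0.06, so the median of the list is the value of acat2. The other lower genes were LPIN2, agpat2, agpat5 and gpat3.

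Of 26 tested genes that control lipolysis, from cAMP signalling to transcription factors, 19 were higher and 7 lower in HFD. The median was 0.11, and 50.4% of all tested genes were above 0. The list mixes genes that promote lipolysis with genes that oppose it, so these counts give no direction for lipolysis. PDE3A (MSTRG.8624), a phosphodiesterase that breaks down cAMP, was the gene of this list with an unadjusted p under 0.05, where 6.02% of all tested genes had one. It was at 0.659, 0.952 and 0.726 FPKM in HFD and at 0.357, 0.462 and 0.420 FPKM in NFD, without overlap (limma, adjusted p = 0.801), and reached the filter in the HFD libraries alone, the diet in which it was higher. A second gene ID, pde3a (MSTRG.5639), was below the filter, with means of 0.0727 FPKM in HFD and 0.1275 FPKM in NFD and with overlap. In this list 3 of the 26 tested genes did not overlap, against 11.6% of all tested genes.

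**Figure D5:**
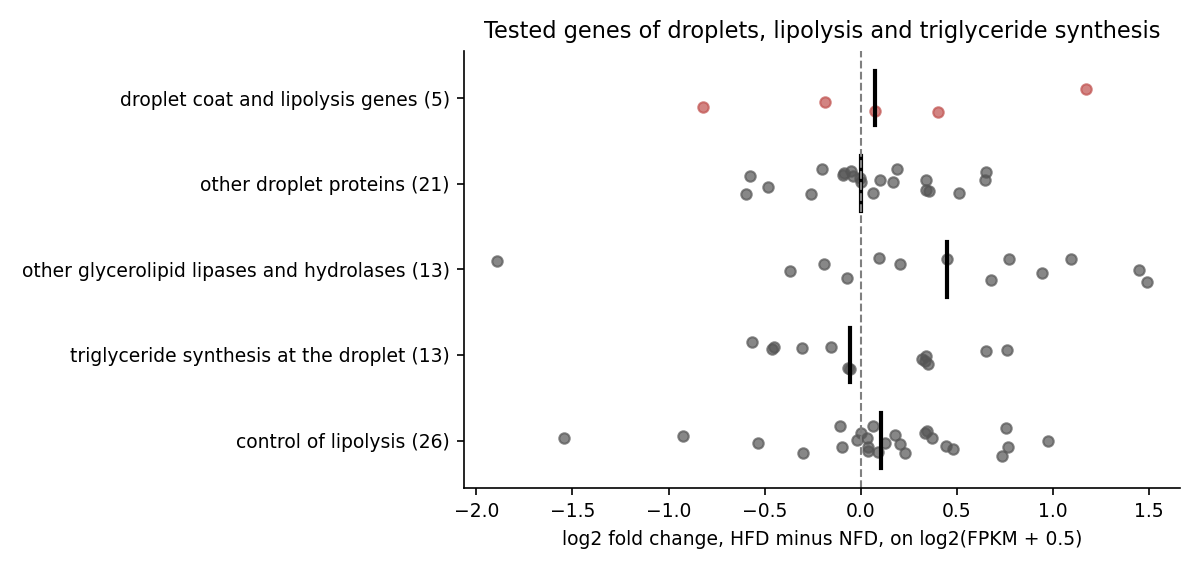
Log2 fold change of HFD against NFD on the log2(FPKM + 0.5) scale (horizontal axis) for each tested gene of the 14 and of the 4 lists, with the number tested in brackets, the median of each list as a black bar and the median of all tested genes as a dashed line. The lipase and hydrolase list has its median at 0.45, the value of ddhd2, and the medians of the other lists lie within 0.11 of 0. That of the triglyceride synthesis list is the value of the sterol enzyme gene acat2.

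Liver identity and other cell types were read from marker lists. The summed level of 15 hepatocyte marker gene IDs was between 2568 and 3486 FPKM in HFD and between 3745 and 8830 FPKM in NFD, without overlap, and none was at 0 throughout. In NFD replicates 1 and 3 that sum held 3857 and 3101 FPKM of the fibrinogen chain gene fgb (MSTRG.26817), which was at or below 1.18 FPKM in the other 4 libraries. The gene ID apoa2/apoeb (MSTRG.18313) was at 1851, 1667 and 2137 FPKM in HFD and at 3622, 2171 and 3186 FPKM in NFD, without overlap. Of 11 tested hepatocyte markers, 3 were higher and 8 lower in HFD, and 1 did not overlap, against 11.6% of all tested genes. Adipocyte markers bear on pnpla2, lipea, plin2 and the CIDE genes, which fat cells also use. Of 11 adipocyte marker gene IDs 4 are genes described above, and the other 7 summed to between 3.503 and 9.82 FPKM in HFD and between 2.43 and 3.11 FPKM in NFD, without overlap. Leptin, lepa (MSTRG.4203), and trarg1b (MSTRG.13130) were listed at 0 in every library, and most of the HFD replicate 2 sum was pck1 (MSTRG.15137), at 7.01 FPKM, an enzyme that liver also makes. Without pck1 the other 6 summed to 3.10, 2.81 and 3.04 FPKM in HFD and to 2.43, 2.67 and 2.93 FPKM in NFD, and the diets overlapped. Most of that sum was adipor1a (MSTRG.5479), at 2.31, 1.95 and 1.99 FPKM in HFD and at 1.35, 2.05 and 2.08 FPKM in NFD. It codes for an adiponectin receptor, which is not limited to fat cells. The rest of the sum was low, with slc7a10a at most at 0.758 FPKM, aqp7 at 0.331 FPKM and trarg1a at 0.161 FPKM. The adipocyte list holds 16 names, and no row was found under adipoq or fabp4. The part of hepatocyte and adipocyte content in the difference of pnpla2 was not tested.

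Exocrine pancreas, which lies inside the liver of many fish, was present in every library. Its 11 marker gene IDs summed to 6687, 4610 and 17790 FPKM in HFD and to 16540, 7857 and 3922 FPKM in NFD, with overlap. Without the libraries highest in these markers, HFD replicate 3 and NFD replicate 1, the log2 fold change of pnpla2 was 1.34. The part of pancreas content in the difference of pnpla2 was not tested. Macrophage markers (7 gene IDs) summed to between 23.02 and 32.6 FPKM, erythrocyte markers (3) to between 3.11 and 10.9 FPKM, and skeletal muscle markers (5) to at most 1.99 FPKM, with overlap between the diets in each. None of 19928 lncRNA transcripts carried the gene ID of any of the 14 genes, while 545 gene IDs of the mRNA table had at least 1.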

How the data were processed

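Ribosomal RNA was removed from total liver RNA before cDNA libraries were made, per the labels' protocols. The deposited tables hold FPKM made by the authors, per the file headers; the tools listed, without roles, are HISAT2 2.0.4, StringTie 1.3.0, edgeR 3.22.3, cutadapt 1.10 and FastQC 0.10.1, per the submitters' processing notes. No genome build or strand setting is given in the sources used here. A value of 0.0001 was taken as no estimate and set to 0. Libraries summed to between 141024 and 170847 FPKM over the mRNA table. Whole reads could not be recovered from low values: over 931 low transcripts at most 1.07% of the ratios between 2 libraries shared a window of 0.005 on the natural log scale, so depth is unknown and no counting interval is given.

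FPKM were summed per gene ID. Genes with at least 0.5 FPKM in 3 libraries were fitted as log2(FPKM + 0.5) with limma 3.58.1 in R 4.3.3 (lmFit, eBayes with a variance trend), diet as the only term, two-sided, with Benjamini-Hochberg adjustment over all tested genes and a threshold of 0.05. Such fold changes understate the change of low genes. On simulated data the fit recovered, at this threshold, 22% of genes with a log2 change of 1 and 76% of genes with a log2 change of 2. The genes followed and the lists were chosen with earlier results of these data known. From each list, up to 4 genes with an unadjusted p under 0.05 are named, or else the 2 most abundant; likeness to pnpla2 and fitm2 is Pearson's correlation over the 6 libraries among genes with 1 name. The marker lists cover hepatocytes, adipocytes, exocrine pancreas, macrophages, erythrocytes and skeletal muscle. Alternatives changed the pseudocount, the filter, the scaling, the variance prior or the use of several transcripts, added a replicate block, or left out libraries. Figures were drawn with matplotlib 3.10.9.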

Additional observations from a re-analysis of the deposited data

How the results depend on the processing

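Over the alternatives, pnpla2 stayed above 0 in 19 of 19 (log2 fold change 0.86 to 1.39, adjusted p 0.639 to 0.9997), lipea in 19 of 19 (0.04 to 0.70) and lipeb in 18 of 18 (0.0046 to 0.20), and fitm2 stayed below 0 in 17 of 17 in which it was tested (-1.61 to -0.51); 0 of these passed. The diets do not overlap for pnpla2 and fitm2, so of these alternatives only the changes of scaling could have turned their sign. Their counts of 19 of 19 and 17 of 17 are therefore no test of the direction. The unadjusted p in limma ranged from 0.00707 to 0.0412 for pnpla2 and from 0.0265 to 0.118 for fitm2. Plin2 turned from -0.19 to 0.13 without HFD replicate 2, to 0.07 without NFD replicate 3 (range -0.57 to 0.13 when 1 library was left out) and to 0.38 without both; the cause was not tested. The count of genes past the threshold was 0 in every alternative except those leaving out 1 library, where it ranged from 0 to 4, with 4 without NFD replicate 2. Genes with an unadjusted p under 0.05 numbered 948 with no filter on low values, where more genes were tested, and 369 without HFD replicate 3 and NFD replicate 1 together, where fewer libraries were. Genes without overlap numbered 1985 with no filter, 1710 to 2165 when 1 library was left out, 2833 without HFD replicate 2 and NFD replicate 3 together and 2913 without HFD replicate 3 and NFD replicate 1 together, as fewer libraries leave more genes without overlap. The share of genes with an unadjusted p under 0.05 that were higher in HFD was 44.4%, and 64.1% without NFD replicate 2. Deviations of each library from its diet mean were correlated over the tested genes. Same-numbered libraries did not deviate together (correlations of -0.0052, -0.201 and -0.106), and differently numbered ones had correlations from -0.134 to 0.204. The labels state no pairing, and these values, from so few libraries, cannot exclude one. With the replicate block the unadjusted count was 412 against 554, 0 genes passed, and pnpla2 had an unadjusted p of 0.0331 against 0.0102 in limma (adjusted p 0.9997). Alternatives for lncRNA transcripts were not run, since none shares a gene ID with these genes.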

Other observations

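The following values were chosen after they were seen. HFD replicate 2, the library with the highest pnpla2 and the lowest plin2, also held the highest levels of several other lipid genes. The triglyceride-forming acyltransferase gene dgat2 (MSTRG.35206) was at 5.24 FPKM there and between 0.454 and 0.852 FPKM in the other 5 libraries. The sterol enzyme genes sqlea (MSTRG.22956) and HSD17B7 (MSTRG.22535) were at 28.6 and 6.58 FPKM there, against at most 9.22 and 1.86 FPKM elsewhere. The lysosomal phospholipase gene pla2g15 (MSTRG.2973) was at 13.1 FPKM against at most 2.83 FPKM.

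Within NFD, replicates 1 and 3 differed from replicate 2 in the phospholipase gene pnpla6 (MSTRG.17622), at 0.0340 and 0.0949 FPKM against 1.89 FPKM, and in the phosphodiesterase gene pde4d (MSTRG.11583), at 0.101 and 0.0735 FPKM against 1.31 FPKM. Fgb was high in the same replicates 1 and 3.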
